A study of Danio rerio with 7 samples.

Results

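The genes described here are the vesicle, transport and coagulation genes of module 4, 1 of 8 gene modules deposited for zebrafish heart muscle cells taken beside a cryoinjury. They are the identifiers listed under the 7 terms of the module 4 annotation chart whose names hold vesicle, transport, SNARE, Golgi, endosom, exocyt, endocyt or coagulation. Of 53 distinct identifiers under those terms, the solute carriers SLC9A8 and SLC29A3 were left out, as the rule leaves out solute carriers and Rab GTPases, and no Rab gene was among them. This leaves 51 genes, which are 10.7% of the 475 genes of module 4 and part of the 4449 genes in all modules. Within module 4 the members were chosen by the names of the terms and by no level of expression. How module 4 itself was made is not stated in the sources used here. The chart lists only terms with a p of at most 0.0999, so the authors' p-values also set which terms could be taken. These p-values are given as a description.

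The cells came from 4 plates of hmga1a mutant fish and 3 plates of wildtype fish, and all fish carried the nppa:mCitrine reporter. Adult hearts were taken 7 days after cryoinjury, and cells positive for the reporter, labelled as border zone cardiomyocytes, were sorted into plates of 384 wells. The reporter follows nppa, the atrial natriuretic peptide gene, so the sort takes cells that switch this gene on. The labels do not say how many fish stand behind a plate. The module lists hold identifiers and no values, so levels per plate, sequencing depth and replicate error of the genes are not known, and mutant and wildtype plates could not be compared for any of them. What can be read is which genes the authors placed together, under which terms, and where their relatives and partners lie.

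Proteins made in the endoplasmic reticulum travel in membrane vesicles to the Golgi apparatus, where sugars are added, and on to the cell surface, the outside or endosomes. Fusion of a vesicle with its target is driven by SNARE proteins, which zip together across the 2 membranes and are pulled apart afterwards by the ATPase NSF with its SNAP adaptors. Proteins taken up from the surface pass through endosomes, from which sorting nexins and the retromer return them and ESCRT complexes send them to lysosomes. Blood coagulation is a chain of proteases that ends in thrombin and fibrin, and it is held back by inhibitors and by the protein C pathway. In heart muscle cells the same membrane systems carry secreted peptides, channels and adhesion receptors.

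The 3 terms with the lowest p-values in the authors' deposited table for module 4 were cytoplasmic vesicle, blood coagulation and protein transport, all of which the rule takes in. Cytoplasmic vesicle had 13 genes and a fold enrichment of 3.07 in the authors' deposited table, with p = 0.00118 and a Benjamini-adjusted p of 0.251. Fold enrichment is the share of annotated module genes in a term over the share of the authors' background genes in it, here 3.86% over 1.26%. Blood coagulation had 6 genes and the highest fold of the selected terms, 7.47, in the authors' deposited table (p = 0.00119, adjusted p = 0.553). For protein transport the authors' deposited table gives 16 genes and a fold of 2.59 (p = 0.00144, adjusted p = 0.553). The Golgi apparatus term had the most genes, 19 with both solute carriers, and the lowest fold, 1.81, in the authors' deposited table (p = 0.018, adjusted p = 0.764).

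The smaller terms were SNARE complex, endocytic vesicle and cytoplasmic vesicle membrane. For SNARE complex the authors' deposited table gives 6 genes and a fold of 5.27 (p = 0.00555, adjusted p = 0.556), but it lists 5 identifiers, and 5 genes would give a fold of 4.39. Endocytic vesicle had 4 genes and a fold of 6.06 in the authors' deposited table (p = 0.0278, adjusted p = 0.874). Cytoplasmic vesicle membrane had 4 genes and a fold of 4.76 in the authors' deposited table (p = 0.0514, adjusted p = 0.955). By the unadjusted p, 6 of the 7 terms were under 0.05, against 55.1% of the 78 terms in the same chart, which lists no term with a p above 0.0999. By the adjusted p, 0 of the 7 terms and 0.0% of all terms in the chart were under 0.05. The enrichment of these terms is therefore not called after adjustment, and the 51 genes are described as a list that shares annotation.

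**Figure D1:**
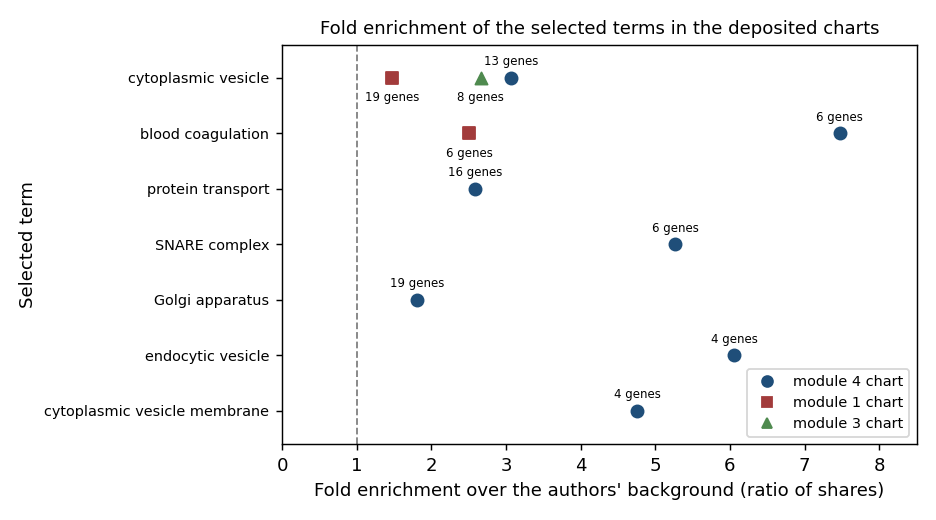
Fold enrichment (ratio of shares, horizontal axis) of each of the 7 selected terms (vertical axis) in the authors' deposited charts, with the number of genes in the term; blue circles are module 4, red squares module 1 and green triangles module 3, and the dashed line marks equal shares. In module 4 the folds run between 1.81 for Golgi apparatus and 7.47 for blood coagulation, and 2 of the terms are also listed in other charts.

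Of the 7 terms, 2 were also listed in the chart of another module. Blood coagulation was at a fold of 7.47 in module 4 and at 2.51 in module 1 in the authors' deposited table, with 6 genes in each (p = 0.0886 in module 1). Cytoplasmic vesicle was at 3.07 in module 4, 2.66 with 8 genes in module 3 and 1.47 with 19 genes in module 1 in the authors' deposited table (p = 0.0313 in module 3 and 0.0958 in module 1). The difference between modules was not tested. The charts list only terms at a low p, so a term missing in a chart is not known to hold no genes there.

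Most of the genes were under a single selected term. Of the 51, 42 were under 1 term, 6 under 2, 1 under 3 and 2 under 4. The 2 under 4 terms were MYO6 (ENSDARG00000042141) and YKT6 (ENSDARG00000038308). MYO6 is the myosin that walks toward the minus end of actin and moves endocytic vesicles inward, and it was under cytoplasmic vesicle, protein transport, Golgi apparatus and endocytic vesicle. YKT6 is a SNARE held to membranes by a lipid anchor, and it was under cytoplasmic vesicle, its membrane, protein transport and Golgi apparatus. SNX17 (ENSDARG00000091418), a sorting nexin that returns receptors and integrins from endosomes to the surface, was under 3. No coagulation gene was under any other of the 7 terms.

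**Figure D2:**
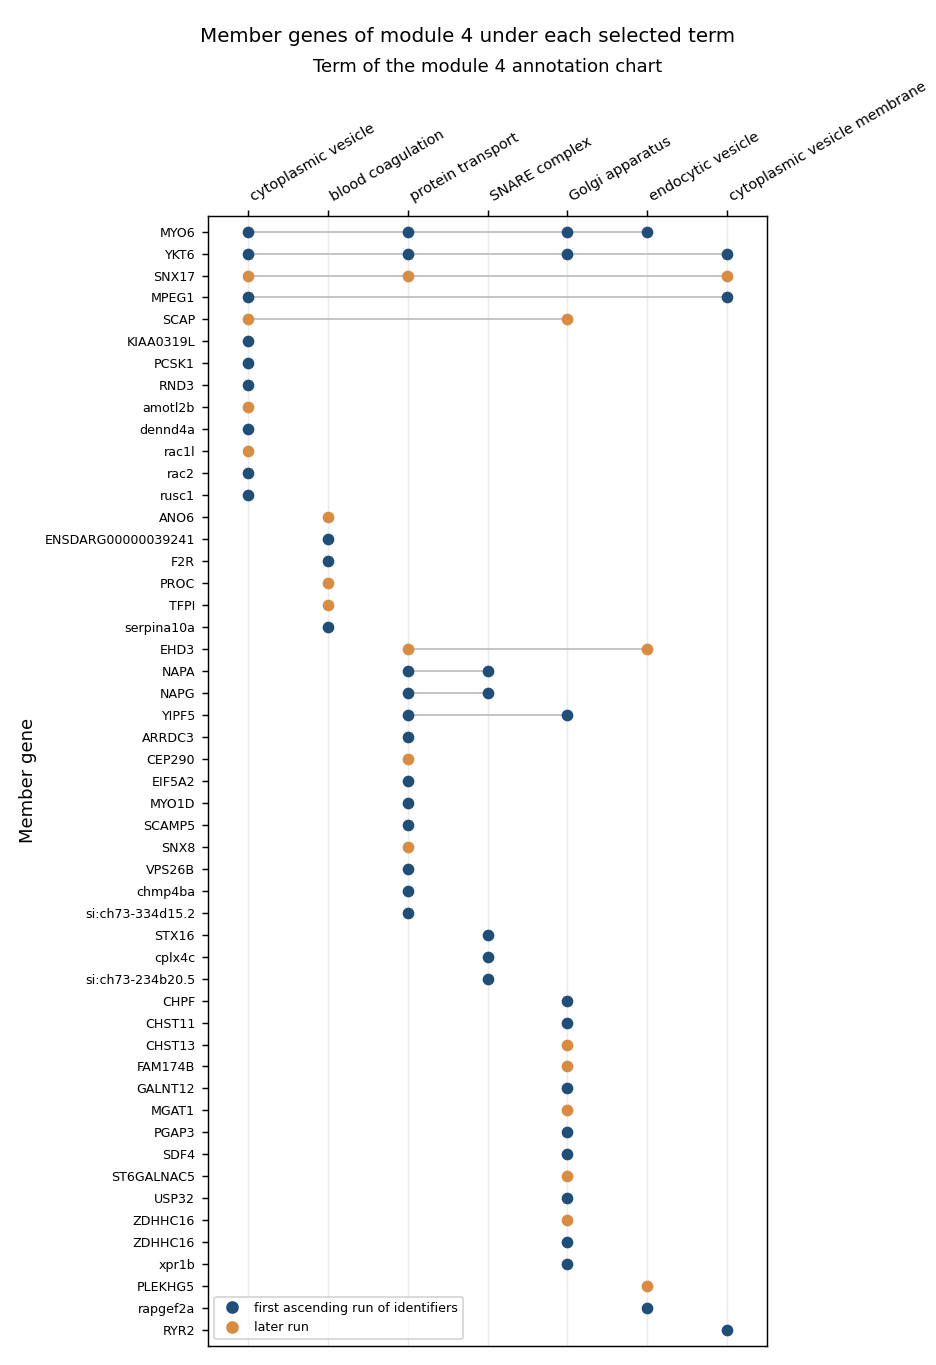
The 51 genes (rows) under the 7 selected terms of the module 4 chart (columns); a dot marks that the authors' chart lists the gene under the term, and grey lines join the dots of 1 gene. Blue dots are genes in the first ascending run of identifiers of the deposited module list (35 genes) and orange dots those in later runs; 42 genes have 1 dot, and the blood coagulation column shares no gene with another column.

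Membrane fusion was represented by SNAREs and by adaptors of NSF, the ATPase that takes them apart. STX16 (ENSDARG00000003307), a syntaxin of the trans-Golgi network that receives vesicles from endosomes, was under SNARE complex, while the SNARE YKT6 was not. NAPA (ENSDARG00000020405) and NAPG (ENSDARG00000043012), the alpha and gamma SNAP adaptors that bring NSF to used SNARE bundles, were under SNARE complex and protein transport. The term for soluble NSF attachment protein activity, which the rule did not use, held only these 2 in module 4 and had a fold of 20.5 in the authors' deposited table (p = 0.0933, adjusted p = 1.0). The third adaptor, NAPB, lay in module 2, and NSF itself was in no module by name. The complexin cplx4c (ENSDARG00000094889), of a family that clamps and releases SNARE bundles, and si:ch73-234b20.5, which has a clone name and no role known here, completed the 5 identifiers. Syntaxin binding listed 4 of these 5, all but STX16, and no other identifier. The authors' deposited table gives that term 5 genes.

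Of 39 SNARE symbols, 6 identifiers lay in any module: STX16 and YKT6 in module 4, SNAP47 and vamp2 in module 1, SEC22A in module 2 and VAMP8 in module 3. SNARE regulators had 3 of 8 in module 4, NAPA, NAPG and the synaptotagmin-like sytl2a, and sytl2a was under none of the selected terms. The other 5 were CPLX4 and STXBP2 in module 1, NAPB and STXBP4 in module 2 and SYT1 in module 6. The complexin cplx4c of module 4 is not in these counts, as the match allowed a final a, b or l but not c. Of all module genes, 10.7% lie in module 4. STX16, YKT6, NAPA and NAPG are members, taken by terms of the same theme, so these counts restate the choice in part. STXBP2, a Munc18 protein, binds syntaxins before fusion, and SYT1 is the calcium sensor of fast release in neurons.

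Endosomal sorting genes followed. SNX17, SNX8 (ENSDARG00000074842), VPS26B (ENSDARG00000055433) and chmp4ba (ENSDARG00000016255) were all under protein transport. SNX8 is a sorting nexin with a membrane-bending domain, VPS26B is a subunit of the retromer that carries cargo back to the Golgi, and chmp4ba encodes a filament protein of ESCRT-III, the machine that cuts membrane necks. With 4 of 15, module 4 held as many genes of the endosomal sorting list as module 2, whose 4 were HGS, SNX10, SNX9 and VPS37A. Module 4 holds 10.7% of all module genes and module 2 holds 13.5%. The 4 of module 4 are members, so that count restates the choice in part. Module 1 had 3 of the 15, VPS4A, VPS35L and PIKFYVE, module 5 had SNX12 and VPS37B, module 3 another SNX9 and module 6 WASHC3. Of the ESCRT genes, the ESCRT-III subunit chmp4ba lay in module 4, the ATPase VPS4A, which disassembles ESCRT-III, in module 1, the cargo-binding HGS and the ESCRT-I subunit VPS37A in module 2 and the ESCRT-I subunit VPS37B in module 5. No other subunit of the retromer core was in a module by name.

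EHD3 (ENSDARG00000007869), an ATPase of recycling endosomes that in mice is needed for the placement of ion exchangers and channels in heart muscle, was under protein transport and endocytic vesicle. Its relative EHD1 lay in module 2. The other endocytic vesicle genes, beside MYO6, were exchange factors of small GTPases, PLEKHG5 (ENSDARG00000025902) and rapgef2a (ENSDARG00000061459). ARRDC3 (ENSDARG00000052690), an arrestin-domain adaptor that marks surface receptors for ubiquitination, SCAMP5 (ENSDARG00000040274), a secretory carrier membrane protein, and YIPF5 (ENSDARG00000007279), which cycles between endoplasmic reticulum and Golgi, were under protein transport. MYO1D (ENSDARG00000036863), a myosin that links membranes to actin, and CEP290, a gate protein of the primary cilium, were under it as well. The remaining genes of that term were EIF5A2, whose protein is known as a translation factor, and si:ch73-334d15.2, which has a clone name. With MYO6 and MYO1D, module 4 held 2 of 11 transport motors, and it holds 10.7% of all module genes. Module 1, with 34.7% of all module genes, held 6, among them KIF1A, KIF1B and DCTN4, which move along microtubules or help to. The 2 listed motors of module 4 both move on actin. They are not all its motors: motor activity had 6 module 4 genes in the authors' deposited table (p = 0.0162, adjusted p = 0.916). So do the listed motors myo1ca in module 3, MYO1E in module 5 and MYO1C in module 6. Of the myosins by name that the list leaves out, MYO3A, myo9b and MYO7B lay in module 1, myo7bb in module 3 and MYO18A in module 5.

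The cytoplasmic vesicle genes included several whose proteins signal or process cargo rather than form coats. SCAP (ENSDARG00000018096) escorts the transcription factor SREBP to the Golgi, and PCSK1 (ENSDARG00000002600) is a prohormone convertase of secretory granules. dennd4a encodes an exchange factor for Rab GTPases and rusc1 an adaptor, and KIAA0319L is a membrane glycoprotein that moves between the surface and the Golgi. RND3, rac2 and rac1l are small GTPases, and amotl2b is an angiomotin-like scaffold of cell junctions. MPEG1 (ENSDARG00000055290) is the perforin-like protein of macrophages, and rac2 is known from blood cells. Neither is a gene of heart muscle by textbook knowledge, and rac2 was also under macrophage migration and neutrophil extravasation in the chart. RYR2 (ENSDARG00000003706), the calcium release channel of the sarcoplasmic reticulum in heart muscle, was among the 4 genes of the cytoplasmic vesicle membrane, with MPEG1, SNX17 and YKT6. The other ryanodine receptors, RYR1 and RYR3, lay in module 2.

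Of the 17 Golgi genes, 6 encode enzymes that build sugar chains. MGAT1 (ENSDARG00000012407) starts the conversion of N-linked chains to the complex type, GALNT12 (ENSDARG00000055490) adds the first sugar of mucin-type O-linked chains and ST6GALNAC5 (ENSDARG00000057433) adds sialic acid to gangliosides. CHPF (ENSDARG00000078392), CHST11 (ENSDARG00000034375) and CHST13 (ENSDARG00000004018) make chondroitin sulfate, the first by lengthening the chain and the other two by sulfating it. These 3 were all the module 4 genes of the KEGG pathway for chondroitin and dermatan sulfate synthesis, at a fold of 5.62 in the authors' deposited table (p = 0.0977, adjusted p = 1.0). PGAP3 remodels the lipid of GPI anchors, and SDF4 is a calcium-binding protein of the Golgi lumen that sorts secreted proteins. Both identifiers named ZDHHC16, a palmitoyltransferase, were in this term. The other members were the deubiquitinase USP32, the phosphate exporter xpr1b and FAM174B, beside SCAP, YIPF5, MYO6 and YKT6.

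The named relatives of the sugar enzymes lay in other modules, apart from the pair of CHST genes. Module 4 holds 10.7% of all module genes, and how often relatives of other genes are spread in this way was not counted. Of the GALNT family, GALNT12 was in module 4, galnt8b.1 and galnt14 were in module 1, GALNT7 and galnt11 in module 2 and galnt6 in module 3. MGAT4B, which branches the chains that MGAT1 opens, lay in module 1. The sulfotransferase chst6 lay in module 1, apart from CHST11 and CHST13. YIPF4 and YIPF1, relatives of YIPF5, lay in modules 7 and 8, and PGAP2, which acts with PGAP3 on GPI anchors, lay in module 8.

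Of the 6 blood coagulation genes, 3 carry names of proteins that hold clotting back. PROC (ENSDARG00000038258) is protein C, the protease that inactivates clotting cofactors, TFPI (ENSDARG00000034718) blocks the tissue factor complex, and serpina10a (ENSDARG00000005924) is named after the inhibitor of factor Xa that depends on protein Z. F2R (ENSDARG00000060012) is a receptor that thrombin opens by cleavage, and ANO6 (ENSDARG00000061544) is a scramblase that exposes phosphatidylserine, the lipid surface on which clotting factors assemble. The last identifier, ENSDARG00000039241, has no symbol in the name table. In the chart it was also under protein kinase activity, nucleotide binding, the VEGF pathway and the MAPK pathway.

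The 6 genes that the module 1 chart lists under the same term were pros1, TFPI2, vwf, SERPIND1, F2RL2 and another F2R. Several are partners or relatives of those in module 4. Protein S, made from pros1, is the cofactor of protein C, TFPI2 is a relative of TFPI, SERPIND1 is a thrombin inhibitor of the same protease inhibitor class as serpina10a, and F2RL2 is a receptor of the F2R family. The fixed coagulation list gave 19 identifiers in modules, 4 in module 4 (F2R, PROC, TFPI and serpina10a), 10 in module 1, 3 in module 2 and 2 in module 6. Module 4 holds 10.7% of all module genes and module 1 holds 34.7%. The 4 in module 4 are members, so their count restates the choice in part. Among those of module 1 were also PLAT, an activator of fibrinolysis, FGL2 and GP1BB. Module 2 held PLG, the precursor of plasmin, ANXA2 and f3b, a tissue factor gene. TFPI, the inhibitor of tissue factor, lay in module 4, and how often such pairs lie apart was not counted. Of the 2 in module 6, serpina1 is an inhibitor of elastase, and f8a matched factor VIII by letters alone: the protein of that name in mammals is no clotting factor.

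Many clotting proteins are known as products of the liver or of platelets and their fish counterparts, thrombocytes. None of 7 hepatocyte markers, fibrinogen genes among them, was found in any module by name, and of 5 thrombocyte markers GP1BB was in module 1. Markers searched with a final a, such as fabp10a, tfa and the heart marker tnnt2a, could not match a name without it. Of the 8 heart muscle marker identifiers in modules, module 4 held 3, both identifiers named TTN, the giant spring protein of the sarcomere, and xirp1. MYL7, tnnc1a and actc1a lay in module 7, nppb in module 2 and nppa, the gene behind the sort, in module 5. Leukocyte markers gave 1 identifier in module 4, MPEG1, which is a member, 5 in module 3 and 2 in module 1. Module 4 holds 10.7% of all module genes, module 3 holds 8.02% and module 1 holds 34.7%. Endothelial, fibroblast, erythrocyte and neural markers gave none in module 4. These are memberships and not levels, so they do not show how many cells of another type the plates held, and the part of such cells in the module was not tested.

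Over the 14 trafficking and coagulation lists, 120 identifiers lay in modules, not counting cplx4c, whose final c the match did not allow. Module 4 held 21 of them (17.5%), and it holds 10.7% of all module genes. Of the 21, 15 were members, taken by terms of the same theme as the lists, so this share restates the choice in part. The other 6 were sytl2a, ARF3, EPN2, CAVIN2, ABCG4 and ATP7A, which the chart lists under none of the 7 terms. In module 1, 42 of the 120 lay, where 34.7% of all module genes lie, and in module 2 there were 18, where 13.5% lie. The lists were chosen with earlier results of these data known, and genes are not replicates, so no test goes with these shares.

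Coats, tethers and cargo receptors gave few identifiers in any module, and counts this small do not set module 4 apart from its 10.7% of all module genes. It held none of the 7 tethers and golgins, none of the 5 cargo receptors, none of the 7 nuclear transport genes and not the 1 COPII gene, SEC23B, which lay in module 1. Of the 12 clathrin list identifiers it held EPN2. Module 1, with 34.7% of all module genes, held 6, among them ITSN1, ITSN2 and DAB2. Identifiers of the clathrin heavy chain, CLTC and cltca, lay in modules 5 and 6. Of the COPI list module 4 held ARF3, and the coat subunits COPZ2 and COPZ1 lay in modules 1 and 6. Over all 14 lists, 16.7% of the identifiers that the lists match in the name table were in a module, against 12.5% of all 29201 named identifiers.

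**Figure D3:**
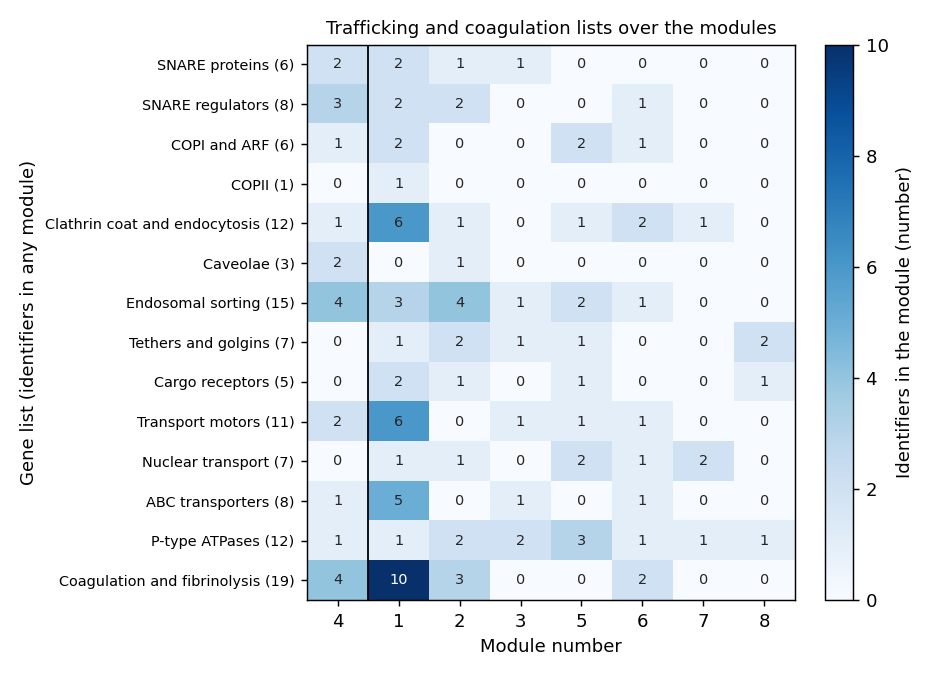
Number of identifiers (cell numbers and blue shade) from each of 14 gene lists (rows, with the identifiers in any module in parentheses) in each module (columns, module 4 first). Module 4 holds 4 of the 15 endosomal sorting genes and 4 of the 19 coagulation genes, and no tether, cargo receptor, nuclear transport or COPII gene. It holds 10.7% of all module genes.

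Zebrafish carry duplicated genes, and 9 of the 51 genes had a copy in a module, meaning an identifier of the same name or one that differs in a final a, b or c. That is 17.6% of the members, against 8.42% of the genes of module 4 and 8.38% of all module genes, a difference that was not tested. Only an identifier with a symbol can have a copy here. Of the 51 members 50 had a symbol, against 395 of the 475 genes of module 4, so the shares outside the members are lowered by unnamed genes. For 7 of the 9 members the copy lay outside module 4. These were amotl2b, F2R and cplx4c, with copies in module 1, SCAMP5 and ST6GALNAC5, with copies in module 2, MPEG1, with its copy in module 3, and ARRDC3, with its copy in module 5. The 2 identifiers named ZDHHC16 were each other's copy and both lay in module 4. A copy in the same module was thus found for 22.2% of the members that had a copy, against 20.0% of 40 such genes in module 4 and 33.2% of 373 in all modules. Names written in capitals do not say which copy an identifier is: for 14 members the RefSeq table of assembly GRCz12tu names both an a and a b gene.

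**Figure D4:**
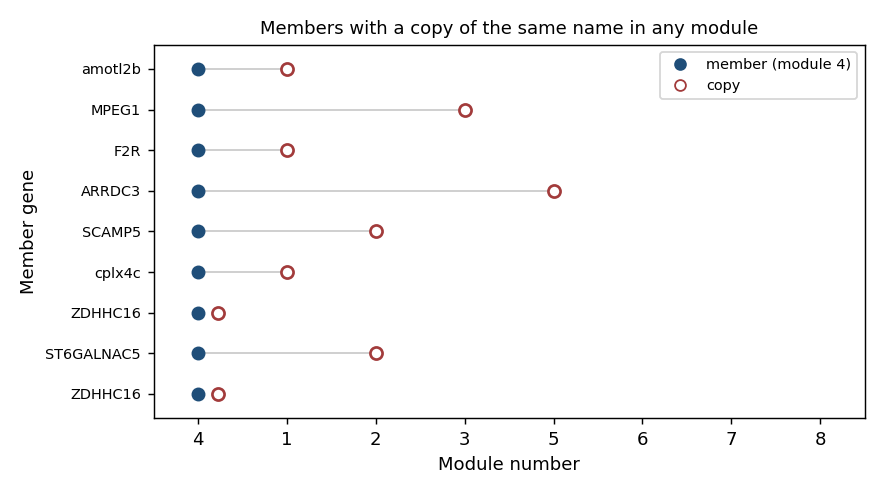
Module numbers (horizontal axis, module 4 first) of the 9 members with a copy of the same name in any module (rows); filled blue circles are the members and open red circles the copies. Only the 2 identifiers named ZDHHC16 lie in the same module, and the other copies lie in modules 1, 2, 3 and 5.

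The members also shared terms that the rule did not use. The chart lists 31 of the 51 (60.8%) under membrane, against 103 of the other 262 module 4 genes in the chart (39.3%), and 5 (9.8%) under nucleus, against 93 (35.5%). As the rule chose membrane compartments by name, these shares describe the choice. RND3, rac2 and rac1l stood together under several actin terms, and the members in these terms were mostly the same 3 genes. Members made up 16.3% of all module 4 genes in the chart. Actin filament organization held these 3 with MYO6 and MYO1D, 5 of its 7 module 4 genes (p = 0.0516, adjusted p = 1.0 in the authors' deposited table). Regulation of cell shape held the 3 with amotl2b, 4 of its 5 (p = 0.0682, adjusted p = 1.0 in the authors' deposited table). The 3 were all the module 4 genes of cortical cytoskeleton organization (p = 0.0958, adjusted p = 1.0 in the authors' deposited table). Small GTPase signalling held these 3 genes with rapgef2a, 4 of its 8 module 4 genes, at a fold of 4.32 in the authors' deposited table (p = 0.00257, adjusted p = 0.562).

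PROC, PCSK1, USP32 and F2R were under both peptidase activity and proteolysis in the chart. These terms had 14 genes (p = 0.0266) and 16 genes (p = 0.0462) of module 4 in the authors' deposited table, each with an adjusted p of 1.0. PROC and PCSK1 act on secreted proteins and USP32 removes ubiquitin. F2R is known as a receptor that is cleaved, so its place under peptidase activity is an entry of the annotation. In angiogenesis the members were amotl2b, PLEKHG5 and si:ch73-334d15.2, 3 of its 10 module 4 genes (p = 0.00633, adjusted p = 0.811 in the authors' deposited table). Heart development held 1 identifier of ZDHHC16 (1.96% of the members), against 8 (3.05%) of the other 262 module 4 genes in the chart.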

How the data were processed

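Single cells sorted by nppa:mCitrine were sequenced by SORT-seq with CEL-Seq2 chemistry, per the labels' protocols, from 4 hmga1a mutant and 3 wildtype plates. The submitters' processing notes name Seurat without version or role. Of how the modules were made, the aligner and the genome build the sources used here say nothing. The deposited data analysed here are 8 lists of Ensembl gene identifiers and 8 annotation charts. Per the file headers, the charts hold the authors' percent of module genes in a term, p-value, Benjamini-adjusted p-value and fold enrichment, a ratio of shares that was checked against the gene numbers it is made from. The percent column of the deposited chart gives 400 identifiers recognised in module 4.

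Members were found by term name. Symbols came from a table of 29201 names, and 50 of the 51 members had one, 38 of these in capitals. The 14 gene lists and 8 marker lists were matched by symbol, ignoring case, with an optional final a, b or l. Relatives share the letters before the first number of a symbol, and the narrower count also asks for the same first number. The members and lists were chosen with earlier results of these data known, and no test was made on them. The rule for naming took members under a coagulation term, on a list or under 3 or more terms, then the remaining members; list genes and relatives in other modules were named beyond it, after their places were seen. Python 3.11.15, pandas 2.3.3 and scipy 1.17.1 were used, and the matching was tested on made-up names. Depth per sample is unknown.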

Additional observations from a re-analysis of the deposited data

How the results depend on the processing

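No paired analysis was possible because the deposited module lists hold no values by plate, and plates could not be left out for the same reason. The number of members, 51, was 22 with biological process terms only, and between 36 and 53 with cellular component terms only, with terms at an unadjusted p under 0.05, with terms of 3 or more genes and with solute carriers kept. All selected terms had 3 or more genes, so that setting could not change the number of members. The 21 list genes in module 4 were 18 with exact symbols, 14 in the first ascending run of identifiers and 21 with copies counted once. These alternatives can only lower a count, so a list with no gene in module 4 could not move. Of 42 counts of single lists under them, 38 stayed within 1.5 times. The other 4 were lower in the first run, which holds 340 of the 475 module genes: caveolae 1 in place of 2, endosomal sorting 2 in place of 4, P-type ATPases 0 in place of 1 and coagulation 2 in place of 4. Of 48 members compared, those with a relative in another module numbered 10 by letters and first number and 33 by letters alone, as the second rule joins large families. The same count was not made for other module genes, and module 4 holds 10.7% of all module genes, so these numbers describe no trait of the members. Chosen after seeing the data, the listed identifiers in place of the authors' gene number gave 4.39 in place of 5.27 for the fold of SNARE complex and left the other 6 folds as they were.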
